A study of Mus musculus with 2 samples.

Results

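The mouse mitochondrial genome encodes 37 genes, and all 37 were examined here in total RNA from the nucleoplasmic fraction of macrophages. The members were chosen by name, as every gene whose symbol begins with mt-, and comprise 13 mRNAs, 2 ribosomal RNAs (rRNAs) and 22 transfer RNAs (tRNAs) among 55536 annotated genes. The study holds 2 libraries of total RNA made after depletion of ribosomal RNA. Both come from bone marrow-derived macrophages of strain C57BL/6J that had received lipid A, the toll-like receptor 4 ligand of bacterial lipopolysaccharide, at 100 ng/ml for 25 min. The labels give the fraction as nucleoplasmic in the description and as nuclear in the source name, and they name no age, sex, genotype change or pooling. Replicate 1 started from 500 ng of RNA and replicate 2 from 1 µg. Both libraries carry the same donor entry and there is no untreated group, so nothing below is an effect of lipid A, and every SD (n = 2) is the spread between these libraries.

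Mitochondrial DNA is copied into RNA along both of its strands. Transcription from the heavy-strand promoters gives a long precursor that holds both rRNAs, most tRNAs and every mRNA but mt-Nd6, while transcription from the light-strand promoter gives mt-Nd6 and the remaining tRNAs. The tRNAs lie between the longer genes, and the precursors are cut at the tRNA ends, which releases the mRNAs and rRNAs. The mRNAs encode core subunits of the respiratory chain and of ATP synthase, and the rRNAs and tRNAs serve the translation of those mRNAs inside the organelle. Stretches of mitochondrial DNA have also been inserted into the nuclear chromosomes, where they are annotated as pseudogenes, and reads from such copies can look the same as reads from mitochondrial RNA.

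The authors quantified each library in a gene table made from alignments to the transcriptome and also in an alignment-free table made from the reads directly. The gene table held 13506939 and 17932332 estimated counts on annotated genes in replicates 1 and 2. The totals of the alignment-free table were 25372491 and 26328920. The 9 macrophage markers, among them Csf1r and Lyz2, lay between 31.3 and 1708 TPM (a share of all transcripts, corrected for gene length and scaled to 1000000 per library) in both libraries, and the 10 markers of T cells, B cells, neutrophils, fibroblasts and erythroid cells lay between 0 and 0.54 TPM. The quantities below are shares of RNA, so that fewer mitochondria or cells with mitochondrial RNA and less of it per cell cannot be told apart. The sources do not state whether reads were counted by strand, so reads from opposite strands of the same stretch cannot be told apart.

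Of the 13 mRNAs, 6 have an almost letter-perfect nuclear copy of their whole length or, for mt-Nd4, of most of it, and for these the deposited count of the mitochondrial gene depends on how the reads were divided. A search of the annotated GENCODE M21 transcripts found 17 genes outside the mitochondrial genome that match a member over at least 100 bases at 90% identity or more. Of these, 7 match at 99% or more. They stand in a row on the minus strand of chromosome 1 (build mm10), from position 24611535 to 24616197, in the same order as their mitochondrial counterparts, and all are annotated as unprocessed pseudogenes. Gm28661 matches mt-Co2 over 681 of 684 bases with no mismatch. Gm10925 matches mt-Atp6 over 678 of 681 bases, Gm28437 matches mt-Co3 over 783 of 784 bases, and Gm10222 matches mt-Nd4l over 294 of 297 bases, again with no mismatch. Gm28439 matches the first 876 of the 1378 bases of mt-Nd4 without a mismatch. Gm28438 differs from mt-Nd3 by T3C over 345 bases, and Gm29216 matches the last 483 bases of mt-Co1 with A1066T, both positions counted from 1 at the first base of the mitochondrial gene. No annotated transcript matched mt-Nd1, mt-Atp8 or an rRNA within these limits, and the tRNAs are too short to reach the minimum length.

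The sequences that separate these pairs are shown because so few letters do. They are from GENCODE M21 transcripts, 5′ to 3′. In mt-Co2, mt-Atp6 and mt-Nd4l the capitals are the last 3 bases, a stop codon, which lie beyond the annotated end of the copy. In the mt-Co1 and mt-Nd3 pairs the capital is the base that differs within the match. The match of Gm29216 to mt-Co1 starts at base 10 of the copy, and the bases printed before it are the copy's own.
mt-Co2: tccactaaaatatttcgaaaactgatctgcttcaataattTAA
Gm28661: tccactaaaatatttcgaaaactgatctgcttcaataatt
mt-Atp6: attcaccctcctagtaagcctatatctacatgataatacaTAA
Gm10925: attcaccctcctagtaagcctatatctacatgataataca
mt-Nd4l: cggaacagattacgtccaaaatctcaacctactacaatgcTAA
Gm10222: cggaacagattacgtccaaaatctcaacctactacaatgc
mt-Nd3: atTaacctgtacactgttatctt
Gm28438: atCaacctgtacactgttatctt
mt-Co1: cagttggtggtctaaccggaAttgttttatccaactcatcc
Gm29216: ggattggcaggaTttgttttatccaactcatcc
A fragment inside mt-Co2, mt-Atp6, mt-Co3 or mt-Nd4l that stops short of the last bases therefore fits both genes of the pair equally well.

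The mitochondrial genes took 4.87 ± 0.268% (SD, n = 2) of the counts in the gene table. The mRNAs made up most of this, with 4.61% (95% Wilson interval 4.60 to 4.62) in replicate 1 and 4.26% (4.25 to 4.27) in replicate 2, which differ by a factor of 0.924. Intervals of this kind cover counting error only. The rRNAs held 0.0756% of the counts in replicate 1 and 0.805% in replicate 2. The tRNAs were listed at 0 in both libraries of the gene table, where the effective length of all 22 is 0. The 7 chromosome 1 copies held a further 1.12 ± 0.138% of the counts, so that the 13 mRNAs together with their copies came to 5.55 ± 0.386%. For scale, the genes of cytosolic ribosomal proteins summed to 0.173 ± 0.0085%. The alignment-free table gave 4.33 ± 0.271% for all 37 genes, 3.85 ± 0.244% for the mRNAs, 0.468 ± 0.514% for the rRNAs and 0.00639 ± 0.00067% for the tRNAs.

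Among the mRNAs, mt-Co1, the catalytic core of cytochrome c oxidase (complex IV), had by far the most counts, with 259778 in replicate 1 and 327561 in replicate 2. It ranked 2nd and 4th by counts of all annotated genes, and it held 42.3 ± 0.825% (SD, n = 2) of all counts on mitochondrial mRNAs as listed. With the counts of the copies added to the mRNAs, mt-Co1 held 33.8 ± 1.12%. Its level was 14281 and 10484 TPM, and only 14.5 and 31.1 counts went to its nuclear copy Gm29216, which covers the last part of the gene. The 2 other mitochondrial subunits of complex IV stood at the opposite end. mt-Co2, the subunit that accepts electrons from cytochrome c, was listed with 1269 and 611 counts and 198 and 53.2 TPM, the lowest of all 13 mRNAs in both libraries. Its copy Gm28661 was listed with 39717 and 67435 counts, which is 96.9% and 99.1% of the pair. With the copy added, mt-Co2 came to 6431 and 5961 TPM, above mt-Atp6 in both libraries, below mt-Nd4 in replicate 1 and above it in replicate 2. mt-Co3, the third core subunit, was listed with 2978 and 12021 counts against 24101 and 42672 for Gm28437, and its TPM moved from 383 and 872 to 3486 and 3974 with the copy.

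ATP synthase (complex V) has 2 mitochondrial subunits, and their genes overlap. mt-Atp6, which forms part of the proton channel, was listed with 2467 and 6840 counts and 387 and 599 TPM, against 36642 and 46311 counts for its copy Gm10925. With the copy its level was 6175 and 4681 TPM. mt-Atp8, a short membrane subunit, had 4827 and 6867 counts, far fewer than mt-Co1, yet 14900 and 7604 TPM, the highest level in replicate 1 and the second highest in replicate 2. The gene is 204 bases long, and the gene table gave it an effective length of 23.7 and 39.4 bases, the divisor of its TPM. Per 1000 bases of full length and per 1000000 counts, mt-Atp8 stood at 1752 and 1877 and mt-Co1 at 12449 and 11823, so the high TPM of mt-Atp8 was not seen on that scale. The bases that both genes share are printed here, with the start codon of mt-Atp6 and the stop codon of mt-Atp8 in capitals, since a read inside this stretch belongs to both.
mt-Atp8 and mt-Atp6: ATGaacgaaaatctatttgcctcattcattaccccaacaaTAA

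Complex I, the NADH dehydrogenase, takes 7 of the mRNAs and held 45.8 ± 2.00% of the mRNA counts. mt-Nd5 was the highest of these by counts, with 117095 and 117104, and 5321 and 3110 TPM. mt-Nd1 had 54941 and 57240 counts and 5414 and 3225 TPM. mt-Nd2 had 29757 and 28936 counts and 2644 and 1476 TPM. None of these 3 has a near-identical annotated copy, and all 3 were lower in TPM in replicate 2 than in replicate 1. The TPM of replicate 2 was lower for genes in general, by a median of 0.42 on the log2 scale, and the short nuclear RNA Rn7sk alone had 112737 TPM in replicate 1 and 201888 TPM in replicate 2.

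The 3 remaining heavy-strand genes of complex I lie side by side and have copies. mt-Nd4 was listed with 51012 and 74200 counts and its copy Gm28439, which is shorter than the gene, with 53466 and 18249. This was the only pair whose sum was lower in the deeper replicate 2, at 104478 counts in replicate 1 and 92449 in replicate 2. mt-Nd4l had 2817 and 8290 counts against 8614 and 7882 for Gm10222, and mt-Nd3 had 1304 and 5411 against 1931 and 729 for Gm28438. The counts of mt-Nd4l and mt-Nd3 were higher in replicate 2 while those of their copies were lower there. mt-Nd4l and mt-Nd4 overlap, and their 7 shared bases are shown in capitals because reads across this junction belong to both genes.
mt-Nd4l and mt-Nd4: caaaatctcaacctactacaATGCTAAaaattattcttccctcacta
Complex III has the mitochondrial subunit mt-Cytb, which had 57407 and 70933 counts and 4518 and 3218 TPM, close to mt-Nd1 in both libraries.

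mt-Nd6, also a complex I subunit, is the only mRNA read from the light-strand promoter. It had 36893 and 47614 counts and 8873 and 6184 TPM. The median of the 12 heavy-strand mRNAs was 2925 and 2885 TPM, so that mt-Nd6 lay above it by 1.35 ± 0.35 on the log2 scale (SD, n = 2), and 2 of the 12, mt-Co1 and mt-Atp8, were higher in either library. With the copies added to the heavy-strand genes the difference was 0.64 ± 0.032, and on the alignment-free TPM it was 1.02 ± 0.073. As counted, mt-Nd6 was thus above the middle of the heavy-strand mRNAs on each of these scales. Its gene shares 14 bases with the end of mt-Nd5 on the other strand. Since the strand of counting is not stated, the counts of mt-Nd6 may include heavy-strand RNA that runs opposite to it. Whether such RNA was counted with mt-Nd6, or light-strand RNA with the heavy-strand genes opposite to it, was not tested.

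**Figure D1:**
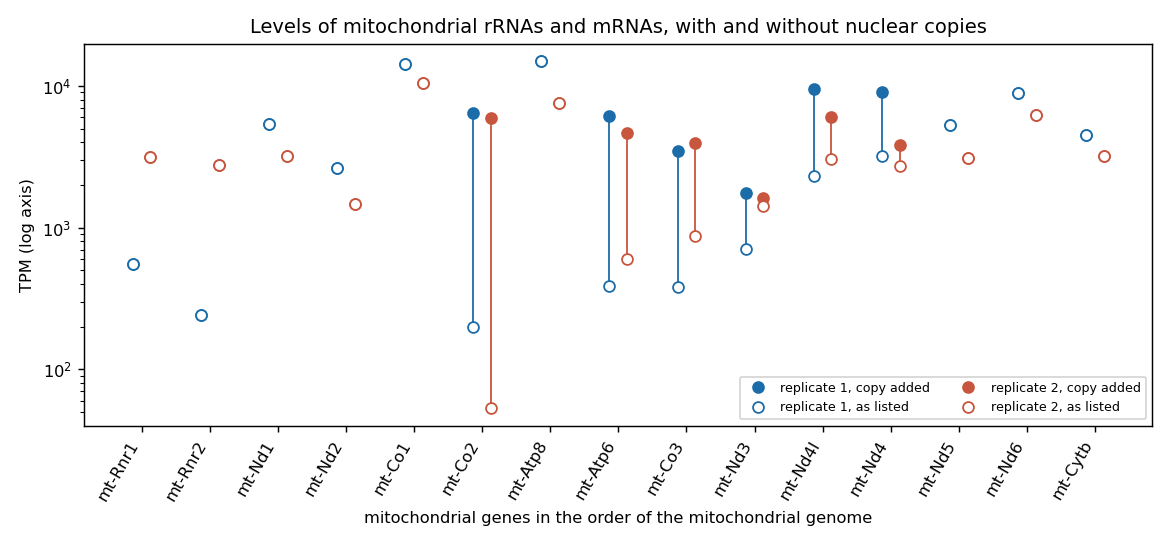
TPM (log axis) of the 2 rRNAs and 13 mRNAs in the order of the mitochondrial genome, with each library as a point, open as listed for the mitochondrial gene and filled with the TPM of its chromosome 1 copy added. mt-Co2 is listed at 198 and 53.2 TPM and lies at 6431 and 5961 with its copy, while genes without a copy have only open points.

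As listed, the mRNAs spanned a wide range, from mt-Co2 at the bottom to mt-Atp8 or mt-Co1 at the top, which is 6.93 ± 0.98 on the log2 scale of TPM. With the copies added the range was 2.95 ± 0.18, and the lowest genes were then mt-Nd3 and mt-Nd2. The 6 genes with a whole or long copy had a median of 545 and 1144 TPM as listed, against 5414 and 3225 TPM for the 7 others. With copies their median was 6303 and 4328 TPM, within the range of the 7 others in each library. The median of log2(TPM + 1) over the 13 mRNAs was 11.61 ± 0.047 as listed and 12.27 ± 0.449 with copies, beside 3.13 for genes of at least 1 TPM in both libraries. In the order by mean TPM with copies, mt-Co1, mt-Atp8, mt-Nd4l and mt-Nd6 came first, and only mt-Co3 and mt-Nd2 were neighbours whose values did not overlap between libraries. The order among the others is not resolved by 2 libraries.

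The nuclear-encoded partners of these subunits were far lower in the same RNA. This is RNA of the nucleoplasmic fraction alone. No cytosolic or whole-cell RNA is among the libraries, so the levels in whole cells are not known from them. The 36 nuclear genes of complex I on a list of its subunits had a median of 8.04 and 5.57 TPM, against 5414 and 3225 TPM for the 7 mitochondrial genes with copies. Ndufs1, the subunit that carries several of its iron-sulfur clusters, was the highest at 29.2 and 17.1 TPM. For complex III the 9 nuclear genes had a median of 9.5 and 6.19 TPM, and Uqcrh was highest at 16.0 and 15.1 TPM. For complex IV the 11 nuclear genes had a median of 15.9 and 10.7 TPM, with Cox4i1 at 41.5 and 41.6 TPM. For complex V the 15 nuclear genes had a median of 10.9 and 10.4 TPM, with Atp5b, the catalytic beta subunit, at 53.8 and 31.1 TPM. Even the lowest mitochondrial mRNA with its copy, mt-Nd2 in replicate 2 at 1476 TPM, exceeded the highest of these.

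The 42 nuclear genes on a list for mitochondrial RNA synthesis and processing had a median of 6.36 and 4.15 TPM, and 36 of them had at least 1 TPM in both libraries. Mterf3, a factor that limits mitochondrial transcription, was at 32.7 and 16.4 TPM, and Polg, the mitochondrial DNA polymerase, at 30.3 and 18.0 TPM. Fastk, a regulator of mt-Nd6 mRNA, was at 25.4 and 19.9 TPM. At the low end, Tefm, the elongation factor of the mitochondrial RNA polymerase, was at 0.88 and 0.68 TPM and Mterf2 at 0.50 and 0.37 TPM. Of the 41 with at least 10 counts in each library, 0 differed by more than 2-fold between the libraries relative to the median gene, where 1.22% of all genes were higher and 0.487% lower by that rule, so this count is near the background.

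How the counts of a pair were divided differed between the tables as well as between the libraries. In the gene table the copy had more counts than the mitochondrial gene in 6 of 6 pairs in replicate 1 and in 3 of 6 in replicate 2, leaving out mt-Co1. In the alignment-free table this held for 2 of 6 and 1 of 6. mt-Atp6 shows the contrast most fully. The gene table gave its copy 93.7% and 87.1% of the pair, while 0.0229% and 0.316% went to it in the alignment-free table. For mt-Nd4l the copy took 75.4% and 48.7% in the gene table, whereas the alignment-free table listed it at 0 in both libraries. For mt-Co3 the copy took 89.0% and 78.0% in the gene table, against 9.21% and 16.3% without alignment. For mt-Nd3 it took 59.7% and 11.9%, against 4.59% and 0.00137%. For mt-Co2 the copy held most of the pair in both tables, with 84.0% and 73.9% in the alignment-free table. For mt-Nd4 the copy held 51.2% and 19.7%, against 57.7% and 31.8%, so here the tables kept the same order of the libraries.

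**Figure D2:**
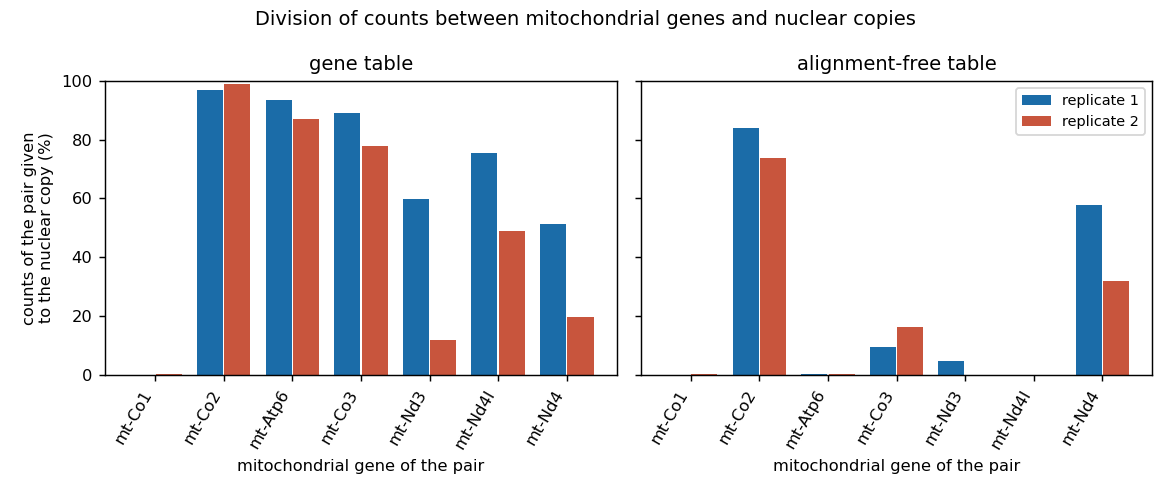
Percentage of the counts of each pair (mitochondrial gene plus chromosome 1 copy) that was given to the copy, for replicates 1 and 2, in the gene table on the left and the alignment-free table on the right. For mt-Atp6 the bars stand at 93.7% and 87.1% on the left and near 0 on the right, and for mt-Co1 they are near 0 in both.

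The gene table also holds a posterior mean and SD of each count, an estimate by the authors' quantifier of how firmly the reads fix it. For mt-Nd1, mt-Nd5, mt-Nd6 and mt-Cytb, and for both rRNAs, that SD was 0. For mt-Co2 the posterior mean was 3996 ± 1270 in replicate 1 and 7655 ± 1700 in replicate 2 (posterior SD), above the listed 1269 and 611 counts. mt-Co3 had 11558 ± 2542 and 24400 ± 2868 against listed counts of 2978 and 12021. mt-Atp6 had 5183 ± 996 and 11765 ± 1924 against 2467 and 6840. For mt-Nd4, whose last part has no counterpart in the copy, the posterior mean of 51011 ± 294 in replicate 1 was almost the listed value. Among the 6 paired genes, mt-Co2, mt-Co3 and mt-Atp6 were thus those whose listed count lay furthest from the posterior mean.

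The alignment-free table and the gene table were then compared gene by gene, as the log2 ratio of a gene's share of counts in the first over its share in the second. Of the mRNAs, 3 of 13 were more than 2-fold higher in the alignment-free table in both libraries and 0 were lower. Over the 23081 genes with enough counts, 36.5% were higher and 0.325% lower by this rule, so the share of mRNAs past it was below the background. Neither rRNA passed it, and the tRNAs cannot be compared in this way because the gene table lists them at 0. The 3 were mt-Co2, at 2.04 and 4.50, mt-Atp6, at 3.68 and 2.59, and mt-Co3, at 2.72 and 1.54. mt-Nd4l was at 1.96 and 0.66. The 7 mRNAs without a whole or long copy lay between -0.44 and -0.11 in replicate 1 and between -0.41 and -0.24 in replicate 2. When the counts of each pair were summed in both tables first, the 6 paired genes lay between -0.35 and -0.06 in replicate 1 and between -0.39 and -0.30 in replicate 2, close to the 7 others. The tables thus differed on these genes in how the pair was divided and hardly in its sum.

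**Figure D3:**
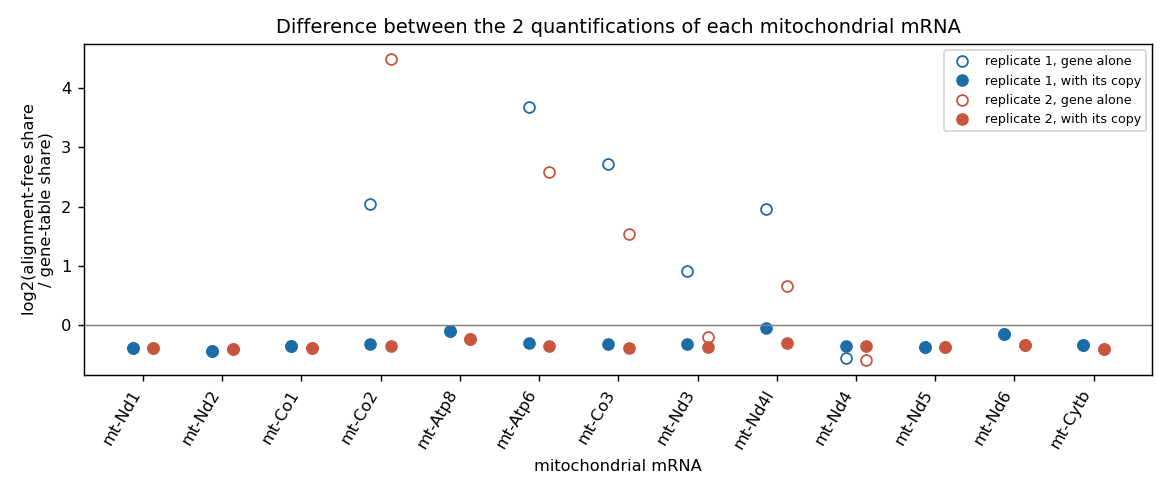
Log2 ratio of each mRNA's share of counts in the alignment-free table over its share in the gene table, for both libraries, with open points for the mitochondrial gene alone and filled points for the gene and its copy summed. Open points reach 4.50 for mt-Co2 in replicate 2, and all filled points lie between -0.44 and -0.06.

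The 10 copies that match at 90.7% to 97.6% drew few counts. They summed to 34.2 and 71.2 counts in the gene table, with the longest identical stretch in each between 39 and 173 bases, against 294 to 876 bases in the 7 near-identical copies. Gm13340 on chromosome 2, which matches mt-Co1 over all 1545 bases at 97.6%, had 24.1 and 50.7 of them. In the alignment-free table the 10 copies summed to 354 and 299 counts, of which Gm13340 had 175 and 214. This full-length copy with 37 mismatches was thus listed at a tiny part of the counts of mt-Co1 in either table.

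The rRNAs were the class that differed most between the libraries. mt-Rnr1, the RNA of the small mitochondrial ribosomal subunit (positions 70 to 1024 of the mitochondrial genome), had 5650 counts in replicate 1 and 55877 in replicate 2, or 558 and 3156 TPM. mt-Rnr2, the RNA of the large subunit (positions 1094 to 2675), had 4555 and 88536 counts, or 244 and 2759 TPM. The rRNAs made up 1.61% of the counts on mitochondrial genes in replicate 1 and 15.9% in replicate 2. mt-Rnr1 stood at 0.103 times the TPM of mt-Nd1, which follows the rRNAs on the same precursor, in replicate 1, and at 0.979 times in replicate 2. The TPM of mt-Rnr1 over that of mt-Rnr2 was 2.29 in replicate 1 and 1.14 in replicate 2, so the rRNAs did not differ by the same factor.

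After subtraction of the median log2 ratio of -0.42 over 14584 genes with at least 10 counts in each library, mt-Rnr1 was 2.92 and mt-Rnr2 3.92 higher in replicate 2 on the log2 scale of TPM + 1, or 7.57-fold and 15.1-fold. A gene was more than 2-fold higher by this measure in 1.22% of cases and more than 2-fold lower in 0.487%. The alignment-free table gave 2.21 and 2.72 against its own median, and rRNA counts of 11182 and 75269 for mt-Rnr1 and 15341 and 143415 for mt-Rnr2. Both libraries had been depleted of rRNA, and the starting amounts differed. The other annotated rRNA genes, 354 in number, held 0.0105% of the counts in replicate 1 and 0.0490% in replicate 2 of the gene table, a ratio of 4.67 that rests on the 1 and 4 of these genes with any count there, and in the alignment-free table they held 0.152% and 0.181%, a ratio of 1.19. The part of depletion or of the starting amount in the rRNA difference was not tested.

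The mRNAs, in contrast, had a median ratio of -0.07 against all genes. Of the 13, 3 were more than 2-fold higher in replicate 2 (mt-Co3 at 1.61, mt-Nd3 at 1.43 and mt-Atp6 at 1.05) and 1 was more than 2-fold lower (mt-Co2 at -1.45). All 4 are genes with a near-identical copy. Over the 14584 genes, 1.22% were higher and 0.487% lower by the same rule. With the copies added, the 13 ratios lay between -0.82 and 0.61 and none passed 2-fold. The largest that remained was mt-Nd4, at -0.82 with its copy and 0.18 as listed. In the alignment-free table mt-Nd4 was at -0.35 as listed and at -1.27 with its copy, which is beyond 2-fold. The copy Gm28439 by itself was at -1.94 in both tables. In the alignment-free table the 4 genes were at 0.46 for mt-Co2, -0.56 for mt-Atp6, -0.09 for mt-Co3 and -0.24 for mt-Nd3, each of the opposite sign. The 7 mRNAs without a whole or long copy lay between -0.55 and -0.02 in the gene table. Each of these 7 was lower in replicate 2 relative to the median gene, but by less than 2-fold, and mt-Co1 was nearly level at -0.02. With edgeR's TMM factors on the counts, the median of the 13 mRNAs turned to 0.21. Of the 7, mt-Co1, mt-Atp8, mt-Nd6 and mt-Cytb also turned, to 0.18, 0.35, 0.21 and 0.15. mt-Nd1, mt-Nd2 and mt-Nd5 stayed lower in replicate 2, at -0.10, -0.20 and -0.16.

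**Figure D4:**
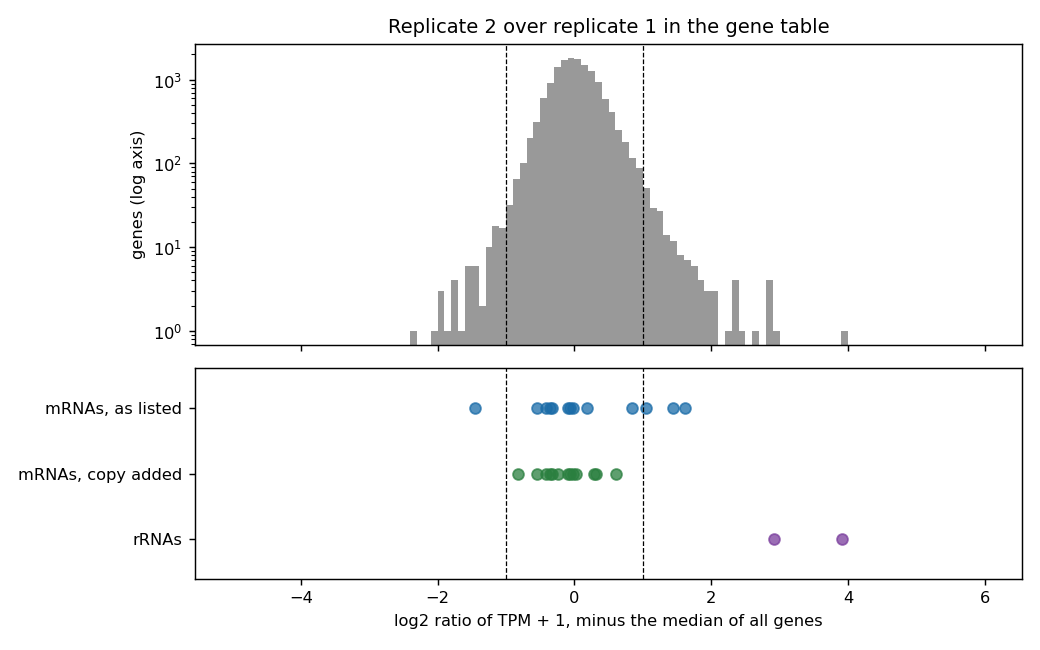
Log2 ratio of TPM + 1 in replicate 2 over replicate 1, minus the median of all genes, as a histogram of 14584 genes (log axis) above and as points for the mitochondrial genes below, with dashed lines at 2-fold. The rRNAs lie at 2.92 and 3.92, and the mRNAs lie within 2-fold once the TPM of the copies is added.

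The tRNAs, of 59 to 75 bases, are shorter than the size range of 250 to 400 that the labels give for these libraries. In the gene table, the effective length of genes over 1000 bases lay below the full length by a median of 215 bases in replicate 1 and 184 in replicate 2. The tRNAs are shorter than this as well. They could be read from the alignment-free table alone, with 1497 counts in replicate 1 and 1805 in replicate 2 over all 22 genes. Reads from an uncut precursor that cover a tRNA and a neighbouring gene cannot be told apart from mature tRNA here. Nor can RNA of the opposite strand that runs across a tRNA gene, since the strand of counting is not stated. Heavy-strand and light-strand below therefore name the annotated strand of the gene and not the measured origin of its reads. The 8 light-strand tRNAs held 73.1% (95% Wilson interval 70.8 to 75.3) of these counts in replicate 1 and 92.7% (91.4 to 93.8) in replicate 2, although they are 8 of the 22 genes. The 14 heavy-strand tRNAs held 402 and 132 counts.

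The 5 tRNAs with the most counts summed over both libraries are shown with their gene sequences, as they carry most of this signal. mt-Ts1 (serine) had 281 and 750 counts, mt-Tc (cysteine) 279 and 246, mt-Te (glutamate) 71 and 262, mt-Tp (proline) 128 and 243, and mt-Tn (asparagine) 187 and 89. All 5 are light-strand genes, although in replicate 1 the heavy-strand mt-Th, with 105 counts, lay above mt-Te. In mt-Ts1 the capitals are the 3 bases that lie opposite the last bases of mt-Co1. mt-Td (aspartate), the next tRNA gene after mt-Ts1 but on the other strand, is shown for contrast, with 1 and 0 counts.
mt-Ts1: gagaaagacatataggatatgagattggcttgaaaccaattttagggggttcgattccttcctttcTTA
mt-Tc: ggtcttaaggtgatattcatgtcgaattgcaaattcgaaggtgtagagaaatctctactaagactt
mt-Te: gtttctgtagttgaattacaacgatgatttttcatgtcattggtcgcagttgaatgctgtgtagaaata
mt-Tp: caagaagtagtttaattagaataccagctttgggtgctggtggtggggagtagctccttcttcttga
mt-Tn: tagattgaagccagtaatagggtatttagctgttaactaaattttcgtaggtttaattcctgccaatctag
mt-Td: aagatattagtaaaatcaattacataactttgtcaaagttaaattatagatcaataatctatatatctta
mt-Ts1 and mt-Td are neighbours, at positions 6870 to 6938 and 6942 to 7011, and mt-Ts1 alone held more counts than the 14 heavy-strand tRNAs together in replicate 2.

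Of the 22 tRNAs, 14 had at least 10 counts in both libraries. All 6 heavy-strand tRNAs among them had a lower share of the counts in replicate 2, by a median log2 ratio of -1.75 and between -1.91 and -0.97. mt-Th (histidine) had 105 and 29 counts and mt-Ts2 (the second serine tRNA) had 61 and 19. Of the heavy-strand tRNAs left out by this minimum, mt-Tf, mt-Tv and mt-Tw had a higher share in replicate 2, at 0.11, 0.27 and 0.79. mt-Ti, mt-Tr, mt-Tl2 and mt-Tt had a lower share, at -1.23, -4.10, -3.83 and -2.06, and mt-Td had 1 and 0 counts. The 8 light-strand tRNAs were divided, with 3 higher in replicate 2 and 5 lower. mt-Te was at 1.83, mt-Ts1 at 1.36 and mt-Tp at 0.87, while mt-Tn was at -1.13, mt-Ty (tyrosine) at -1.10 and mt-Ta (alanine) at -0.81. Of those that were higher, mt-Te and mt-Tp are successive light-strand tRNA genes on either side of mt-Cytb, and mt-Ts1 lies elsewhere, next to mt-Co1. mt-Ta, mt-Tn, mt-Tc and mt-Ty, which lie in a row between mt-Nd2 and mt-Co1, were all lower. As TPM against the median gene of the same table, the 6 heavy-strand tRNAs were again lower (between -1.64 and -0.68), but mt-Tc was level at 0.0043 and mt-Tq (glutamine) turned from -0.06 to 0.28. Over all 22 genes the share of counts was 0.00591% and 0.00686%. These are small counts, and a count of 0, as for mt-Td in replicate 2, allows a share of up to 1.14e-05% of the counts.

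**Figure D5:**
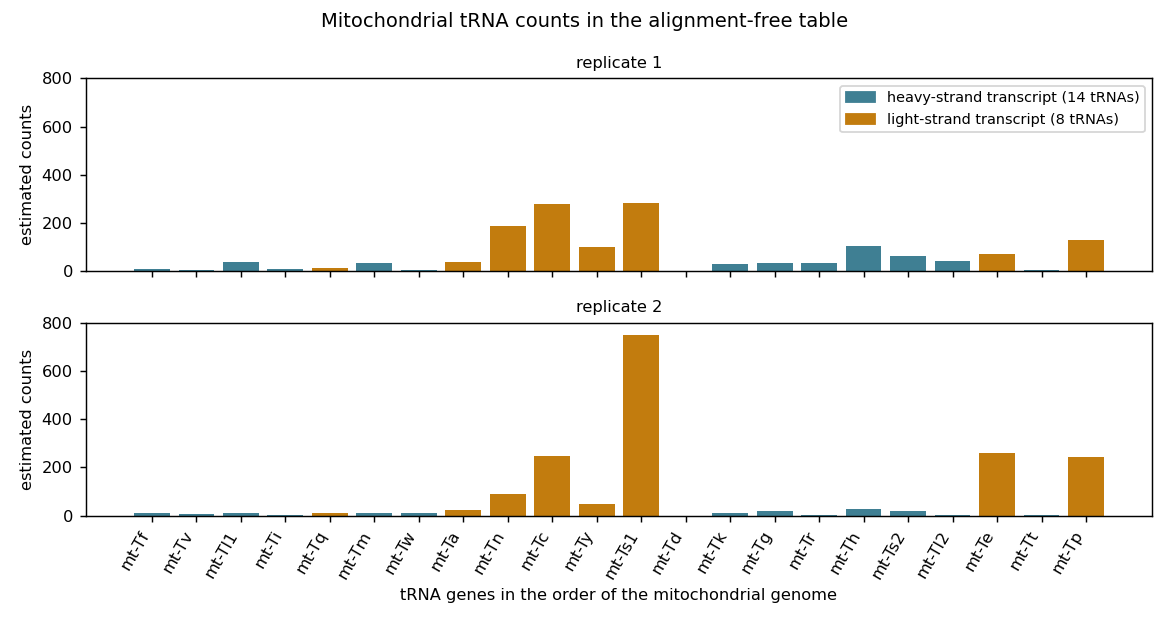
Estimated counts of the 22 tRNA genes in the alignment-free table, in the order of the mitochondrial genome, with replicate 1 above and replicate 2 below, coloured by the annotated strand of the gene. The strand from which the reads came is not known. The tallest bar in each library is the light-strand mt-Ts1, at 281 and 750 counts, and the tallest heavy-strand bar is mt-Th, at 105 and 29.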

How the data were processed

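The authors deposited, for each library, a gene table with estimated (expected) counts, TPM, effective lengths and posterior means, derived from transcriptome alignments, and an alignment-free transcript table with estimated counts and TPM, on mm10 with GENCODE M21, per the file headers and the deposited readme. Neither header nor readme names the aligner or quantifier. Transcripts were summed by gene, and shares use annotated genes only. Ratios between libraries used log2(TPM + 1) minus the median of genes with at least 10 counts in both; with 1 group there are no p-values. The 2-fold rule was tested on simulated data, but no outcome of that test is given here, so it lends the counts of genes no support. Copies were found with BLAST+ 2.17.0 against GENCODE M21 transcripts, since no genome was used. Adding the counts of copies was chosen after seeing the data. For TPM with copies, the TPM of gene and copy were added, each on its own length. All members are described; of other lists, genes at the extremes of mean TPM and copies with at least 10 counts may be named. Members and lists were chosen with earlier results of these data known. Alternatives used a pseudocount of 0.1 TPM, other count minimums, edgeR 4.0.16 TMM and DESeq2 1.42.0 size factors on rounded counts, and Python 3.11.15 was used throughout.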

Additional observations from a re-analysis of the deposited data

How the results depend on the processing

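The share of all mitochondrial genes was 4.33% in the alignment-free table, 5.70% as a share of TPM and 5.99% with nuclear copies added, and that of the mRNAs 3.85%, 5.36% and 5.55%. The tRNA share, 0 in the gene table, was 0.00639% in the alignment-free table. The median log2 level of the mRNAs was 10.17 in the alignment-free table, 12.03 with TPM rescaled over genes of at least 200 bases and 12.27 with copies. Their log2 range was 3.31 in the alignment-free table, 2.95 with copies and 3.88 with copies per full length, and mt-Nd6 lay 0.64 above the heavy-strand mRNAs with copies. The mRNA ratio between libraries was 0.047 with a pseudocount of 0.1 TPM, -0.49 without subtracting the median and with no minimum of counts (where the median gene is at 0), 0.21 with TMM, 0.23 with DESeq2 size factors, -0.0097 with at least 100 counts, -0.62 in the alignment-free table and -0.10 with copies, so its sign depends on the scaling. The rRNA ratio was 3.54, 2.996 and 2.996, 3.63, 3.65, 3.48 and 2.46 under the same settings up to the alignment-free table. The tRNA ratio, -0.77 over 14 tRNAs in the alignment-free table, was -0.18 with a pseudocount of 0.1 TPM, -1.96 without subtracting the median, 1.32 with at least 100 counts, -1.50 with no minimum and 0.21 for the summed share; TMM and DESeq2 factors were not applied to it, since the gene table lists all tRNAs at 0. Genes beyond 2-fold numbered 249, and 685 with a pseudocount of 0.1 TPM, 570 without subtracting the median, 750 with TMM, 764 with DESeq2, 113 with at least 100 counts, 1312 with no minimum and 1317 in the alignment-free table. Of these, 178 were higher and 71 lower, against 403 and 282 with a pseudocount of 0.1 TPM, 52 and 518 without subtracting the median, 301 and 1011 with no minimum and 623 and 694 without alignment. The alignment-free over gene-table ratio of the mRNAs was 0.47 on raw counts in place of shares. The ratios between libraries of mt-Co2, mt-Atp6, mt-Co3 and mt-Nd3 changed sign in the alignment-free table (0.46, -0.56, -0.091 and -0.24), and that of mt-Co2 with its copy (0.31). Those of mt-Nd4l and mt-Nd4, within 2-fold as listed at 0.84 and 0.18, were -0.97 and -0.35 in the alignment-free table and -0.24 and -0.82 with their copies. With either library alone the share of the rRNAs was 0.0756% (without replicate 2) or 0.805% (without replicate 1), against a mean of 0.440%. Where no value is given the cause was not tested. No paired analysis was possible because there is only 1 group. The tRNA values rest on small counts, and the counts of the paired mRNAs on how reads that fit both genes were divided.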
